A study of Mus musculus with 6 samples.

Results

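Usp2, which encodes a ubiquitin-specific protease, and 9 core genes of the circadian clock (Per1, Per2, Cry1, Cry2, Arntl, Clock, Nr1d1, Nr1d2 and Dbp) were read out on every array probe that carried their symbol in the platform annotation. A total of 13 probes of 9 of these 10 genes passed the detection filter, out of 20308 probes and 10585 named genes in all. Cry1 had no probe among those named in the annotation used here and is not analysed here, and any further probe of the other genes that lay below detection on all arrays is unnamed in it. The arrays were hybridized with RNA from 3T3-CrT cells, a stably transfected line of mouse 3T3 Tet Off fibroblasts that expresses a rabbit creatine transporter (CrT) cDNA with a hemagglutinin tag, kept in high-glucose DMEM with FBS, G418 and puromycin and used at 70% confluence. In the untreated group (n = 3) the wells received no creatine (Cr), and in the Cr group (n = 3) the wells received 5 mM creatine monohydrate in growth medium for 3 h. Each of the 6 samples was a culture well with an array of its own, so the p-values below set differences against the spread between wells. The sources used here do not state whether the wells shared a plate or passage or came from independent cultures. Nor do they state whether untreated wells had a change of medium or whether the cultures had been synchronized. With 1 sampling time per group neither phase nor rhythm was measured. The genes were chosen with the results of this comparison known, and Usp2 ranked 14 among the 20308 probes by p. Their differences between the groups are therefore given as a description. Counts of their probes past the limma thresholds are printed beside the share of all probes and support nothing.

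In the mammalian clock, BMAL1 (the product of Arntl) and CLOCK pair to activate transcription from E-box sequences, and their targets include the Per and Cry genes, whose proteins enter the nucleus and repress that same pair. A second loop runs through the REV-ERB receptors, encoded by Nr1d1 and Nr1d2, which repress Arntl from ROR response elements. DBP, a transcription factor with a PAR domain, is another direct E-box target that acts through D-boxes. Fibroblast cell lines carry this oscillator, and serum, cAMP or glucocorticoids induce Per1 in them within hours. USP2 removes ubiquitin from proteins that include cyclin D1, MDM2, PER1, CRY1 and BMAL1, and its transcript oscillates in many mouse tissues.

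Promoter windows of these genes were searched for clock motifs. RefSeq windows (assembly GRCm38.p6, 250 bases before to 50 after each annotated start) matched 9 of the 10 genes, in 13 windows. Per2 had no window and was not searched. Both strands were searched. The E-box was taken as the letters CACGTG. The E-prime box was taken as CACGTT, which shows as its reverse complement when it lies on the other strand. The D-box was taken as TTATGTAA or TTACGTAA and the cAMP response element as TGACGTCA. The core of the ROR response element was taken as TAGGTCA, or with G in place of the second letter. In the windows shown, no match overlapped another. Of all 32851 windows in the table, 7.15% hold the E-box, 4.68% the E-prime box, 1.06% a D-box, 6.45% a core of the ROR element and 1.79% the cAMP response element. The 250 bases before the start are shown for Usp2, on which the comparison turns, and for 3 measured clock genes with an E-box or E-prime box there, in lower case with the motif in capitals, each read from 5′ to 3′ on the gene's own strand.
Usp2, chr9:44084670-44084919, plus strand: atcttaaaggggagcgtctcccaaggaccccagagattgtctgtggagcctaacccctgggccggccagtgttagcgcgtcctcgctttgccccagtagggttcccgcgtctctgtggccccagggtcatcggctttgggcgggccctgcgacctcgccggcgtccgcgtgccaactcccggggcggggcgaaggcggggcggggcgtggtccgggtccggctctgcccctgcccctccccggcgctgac
Per1, chr11:69098699-69098948, plus strand: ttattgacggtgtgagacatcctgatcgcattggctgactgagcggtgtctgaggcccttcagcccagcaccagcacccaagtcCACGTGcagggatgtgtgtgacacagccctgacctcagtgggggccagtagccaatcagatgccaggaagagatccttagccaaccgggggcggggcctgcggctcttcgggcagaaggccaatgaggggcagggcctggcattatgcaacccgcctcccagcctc
Cry2, chr2:92434070-92434319, minus strand: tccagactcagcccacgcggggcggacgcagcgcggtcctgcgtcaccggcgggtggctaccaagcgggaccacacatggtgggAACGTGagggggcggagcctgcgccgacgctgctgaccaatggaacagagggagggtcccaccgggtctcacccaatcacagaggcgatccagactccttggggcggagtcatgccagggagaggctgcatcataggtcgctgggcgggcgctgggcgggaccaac
Nr1d1, chr11:98775378-98775627, minus strand: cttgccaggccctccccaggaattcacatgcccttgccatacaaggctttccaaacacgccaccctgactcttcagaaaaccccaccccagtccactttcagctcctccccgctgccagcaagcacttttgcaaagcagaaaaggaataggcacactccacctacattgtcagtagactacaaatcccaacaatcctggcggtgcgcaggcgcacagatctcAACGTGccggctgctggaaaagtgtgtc

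The E-box of Per1 began 166 bases before the start, the E-prime box of Cry2 166 bases before it and that of Nr1d1 28 bases before it. Cry1 had an E-box 60 bases and an E-prime box 79 bases before its start. Arntl, the target of the REV-ERB receptors, had a core of the ROR element 30 bases after the start of 1 of its windows. In all, 5 windows of 5 genes held a match, and the windows of Usp2, Clock, Nr1d2 and Dbp held none of these letters. The share of all windows that hold any of these motifs was not counted, so nothing is read from this number. Sequence outside these windows, such as that at any other start of a gene, was not searched. A match describes the sequence and shows no binding.

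On these 6 arrays the median signal lay between 152.2 and 166.9 arbitrary units and between 16396 and 17700 of the 45281 probes had a detection p of 0.05 or less. Untreated replicate 1 stood apart on the first principal component, with a score of -18.9 against -2.64 to 10.9 for the others. Of 8 fibroblast markers 7 were measured, 6 of them on all arrays (Col1a1, Col1a2, Fn1, Pdgfra, S100a4 and Vim), and their summed signal was 27988 to 38272 in the untreated group and 32676 to 36893 in the Cr group. Of the markers of other cell types, 0 of 4 adipocyte, 1 of 4 macrophage, 2 of 4 epithelial, 1 of 4 endothelial and 2 of 4 skeletal muscle genes were measured, and Krt8 alone of these was detected on all 6 arrays. Over the 20308 probes, 6 (0.0295%) passed the threshold of limma (Benjamini-Hochberg adjusted p at or below 0.05), 1024 (5.04%) had an unadjusted p at or below 0.05, and for 2180 (10.7%) the groups did not overlap.

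After 3 h in 5 mM Cr, all Cr arrays had less Usp2 than any untreated array. Among the clock gene probes measured beside it, the groups overlapped on all but the dimmer Clock probe, which was higher with Cr. Log2 values and log2 fold changes (Cr minus untreated) are on the generalized log2 scale of the vsn normalization, which compresses differences of dim probes, and levels of different probes cannot be set against each other. Of the 13 probes, 0 passed the adjusted threshold (0.0295% of all probes did), 7 were above 0 and 6 below, and the median log2 fold change was 0.0072, beside 0.0014 over all tested probes. Unadjusted, p in limma was at or below 0.05 for 2 of the 13 (15.4%, beside 5.04% of all probes), and the groups did not overlap for the same 2 probes (15.4%, beside 10.7%). They were the Usp2 probe, lower with Cr, and the dimmer of the Clock probes, higher with Cr. The set had been chosen for the low p of Usp2 in this comparison, so nothing is read from these counts. In RNA from whole wells, fewer cells that express a gene and less RNA per cell cannot be told apart.

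**Figure D1:**
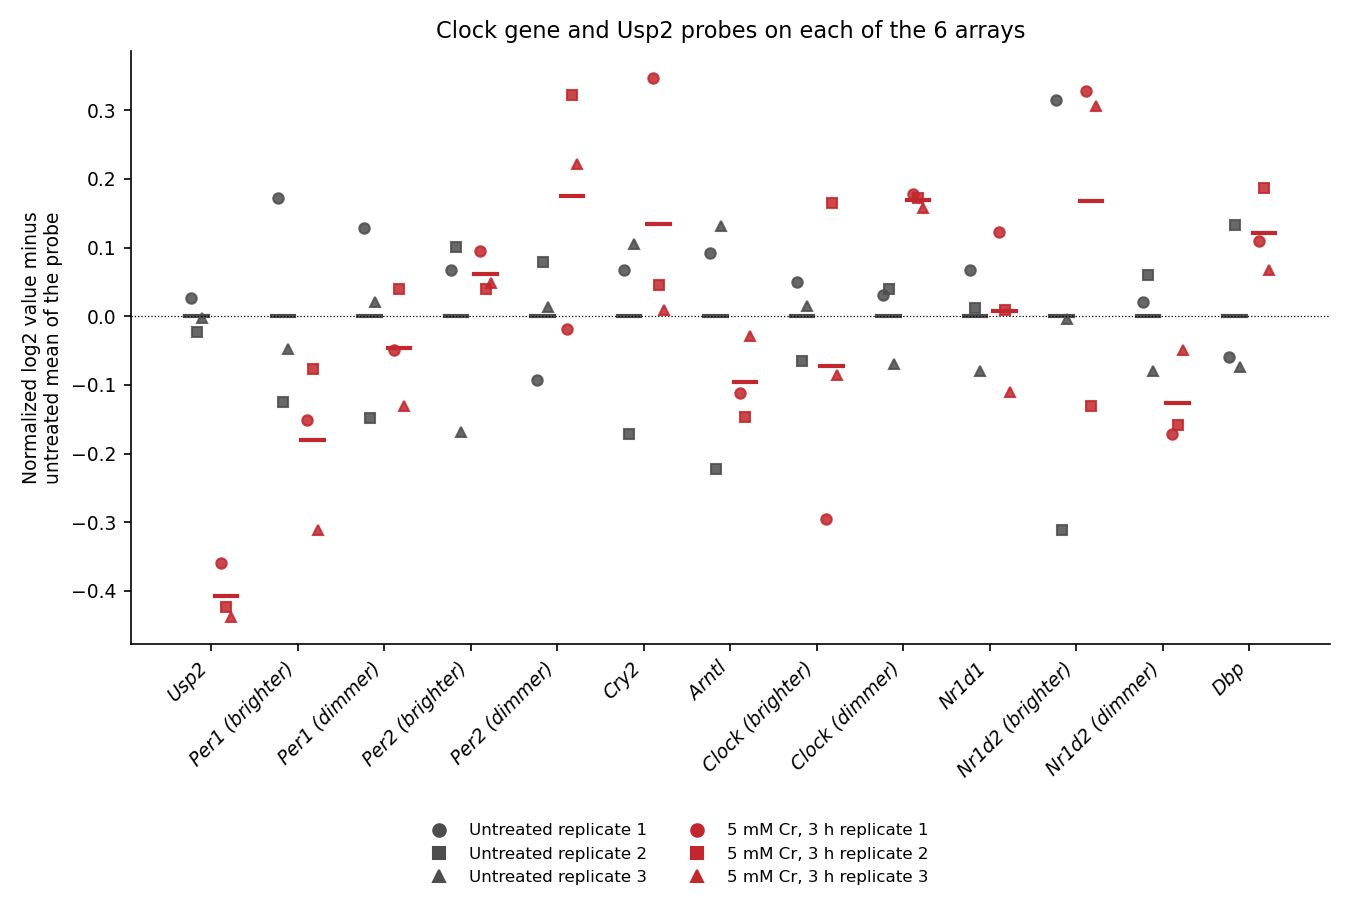
Each point is the normalized log2 value of a probe on an array, minus the mean of the 3 untreated arrays for that probe (vertical axis), for the 13 probes of Usp2 and the clock genes (horizontal axis). Grey marks untreated and red marks 5 mM Cr for 3 h, the symbol gives the replicate and the short line is the group mean. The 3 Cr points of Usp2 lie below all untreated points, with a mean difference of -0.41, and those of the dimmer Clock probe lie above, at 0.17.

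Usp2 was measured by probe ILMN_1240264, which was detected on all 6 arrays. Its normalized log2 values were 8.08, 8.03 and 8.05 on untreated arrays 1 to 3 and 7.69, 7.63 and 7.61 on Cr arrays 1 to 3. The lowest untreated value thus stood well above the highest Cr value, and within each group the arrays lay close together, with an SD of 0.025 in the untreated and 0.042 in the Cr group (n = 3 each). The log2 fold change was -0.41 (standard error 0.078), or 75.4% of untreated controls, a difference in size larger than that of 99.9% of tested probes. Its adjusted p in limma was 0.157, above the threshold, and its rank in size is that of a gene chosen for its low p. In the exported signals, before any normalization, the untreated arrays read 335.5, 317.8 and 283.3 and the Cr arrays 243.3, 242.2 and 247.6 arbitrary units. The group means of the signal were 312.2 ± 26.6 and 244.3 ± 2.85 (SD, n = 3 each), which again did not overlap. For scale, the lowest signal counted as detected was 169.0 to 190.4 on these arrays, so that the probe lay above the detection limit but not far above it. A single probe cannot tell the long from the short isoform of USP2.

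Leaving out any 1 array kept the log2 fold change of Usp2 between -0.43 and -0.39. Other ways of processing the signals changed its size more. It was -0.66 with neqc, -0.49 with normexp and median scaling, and -0.35 with log2 and quantile normalization and no background correction. The level with Cr was accordingly between 63.3% and 78.6% of untreated over the 15 settings run. On the authors' deposited values the log2 fold change was -0.36. The direction was the same in all of these.

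The PER and CRY repressors were represented by 5 probes, and none of them separated the groups. Per1, a period gene that serum and cAMP induce, was read by a brighter probe, ILMN_2813484, at normalized log2 values of 8.40, 8.10 and 8.18 untreated and 8.07, 8.15 and 7.91 with Cr. Untreated replicate 1 was the highest of the 6 arrays, Cr replicate 3 was the lowest, and Cr replicate 2 exceeded 1 untreated array. The log2 fold change was -0.18 (standard error 0.096), or 88.3% of untreated. Leaving out untreated replicate 1 gave -0.09, and leaving out untreated replicate 2 gave -0.24. The dimmer Per1 probe, ILMN_2813487, read 7.58, 7.30 and 7.47 untreated and 7.40, 7.49 and 7.32 with Cr. Its log2 fold change of -0.05 (standard error 0.091) turned to 0.02 without untreated replicate 1. Both Per1 probes were thus highest on the array that stood apart on the first principal component, and the part of that array in the Per1 values was not tested beyond leaving it out.

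Per2, the paralog of Per1 and the other period repressor of the loop, showed values of 8.53, 8.56 and 8.29 untreated and 8.55, 8.50 and 8.51 with Cr on its brighter probe, ILMN_2987863. The Cr arrays fell inside the untreated range, and the log2 fold change of 0.06 (standard error 0.089) became -0.02 without untreated replicate 3. On its dimmer probe, ILMN_2987862, the untreated arrays read 7.71, 7.88 and 7.82 and the Cr arrays 7.78, 8.12 and 8.02. Cr replicates 2 and 3 lay above all untreated arrays and Cr replicate 1 did not, and the log2 fold change came to 0.17 (standard error 0.096), or 112.9% of untreated. Cry2, a cryptochrome that represses CLOCK and BMAL1 directly, read 7.25, 7.01 and 7.29 untreated and 7.53, 7.23 and 7.19 with Cr. This probe was close to the detection limit and was not detected on untreated replicate 2 (its detection value there, 0.0865, is above 0.05), the array with its lowest value. The log2 fold change of Cry2 was 0.13 (standard error 0.105), and 0.03 without Cr replicate 1, the highest array.

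The activators Arntl and Clock likewise overlapped between the groups on their brighter probes. Arntl, whose product BMAL1 is the partner without which the clock stops, had normalized log2 values of 8.50, 8.18 and 8.54 untreated and 8.30, 8.26 and 8.38 with Cr. All 3 Cr arrays lay within the untreated range, and the log2 fold change was -0.10 (standard error 0.098), with -0.03 when untreated replicate 3 was left out and -0.21 when untreated replicate 2 was, the lowest array. Clock, which encodes the other subunit of the activator, was measured by a bright probe, ILMN_2610973, with a mean signal of 2119 arbitrary units, and a dim probe, ILMN_2600964, with a mean signal of 223. On the bright probe the values were 11.08, 10.97 and 11.05 untreated and 10.74, 11.20 and 10.95 with Cr. The Cr arrays held both the lowest and the highest value, so that the SD was 0.230 in the Cr group against 0.058 in the untreated group (n = 3 each), and the log2 fold change of -0.07 (standard error 0.105) became 0.04 without Cr replicate 1. On the dim probe the values were 7.41, 7.42 and 7.31 untreated and 7.56, 7.55 and 7.54 with Cr, a log2 fold change of 0.17 (standard error 0.079) with groups that did not overlap. The 2 Clock probes thus gave differences of opposite sign. In the exported signals the dim probe read 222.5, 225.4 and 193.3 untreated and 225.8, 232.3 and 237.6 with Cr and separated the groups only narrowly, untreated replicate 2 (225.4) lying next to Cr replicate 1 (225.8).

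Nr1d1 (REV-ERBα), the nuclear receptor that represses Arntl, differed least of all, with values of 7.46, 7.40 and 7.31 untreated and 7.51, 7.40 and 7.28 with Cr and a log2 fold change of 0.01 (standard error 0.087). Its sign turned when untreated replicate 3 or Cr replicate 1 was left out (-0.03 and -0.05). Nr1d2 (REV-ERBβ), the second receptor of this loop, varied most among the arrays, reading 9.31, 8.69 and 8.99 untreated and 9.32, 8.87 and 9.30 with Cr on its brighter probe, ILMN_2798993. Replicate 2 was the lowest array in both groups, and the log2 fold change of 0.17 had the largest standard error among the 13 probes (0.144) and ranged from 0.01 without untreated replicate 2 to 0.33 without untreated replicate 1. On its dimmer probe, ILMN_2602387, the values were 7.21, 7.25 and 7.11 untreated and 7.02, 7.03 and 7.14 with Cr, and the log2 fold change was -0.13 (standard error 0.082). This probe lay at the limit of detection and was not detected on Cr replicate 1 (its detection value there was 0.0716). Dbp, whose transcript follows CLOCK and BMAL1 activity closely, read 7.89, 8.08 and 7.88 untreated and 8.06, 8.14 and 8.02 with Cr. Cr replicates 1 and 3 lay below untreated replicate 2, and the log2 fold change was 0.12 (standard error 0.086).

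**Figure D2:**
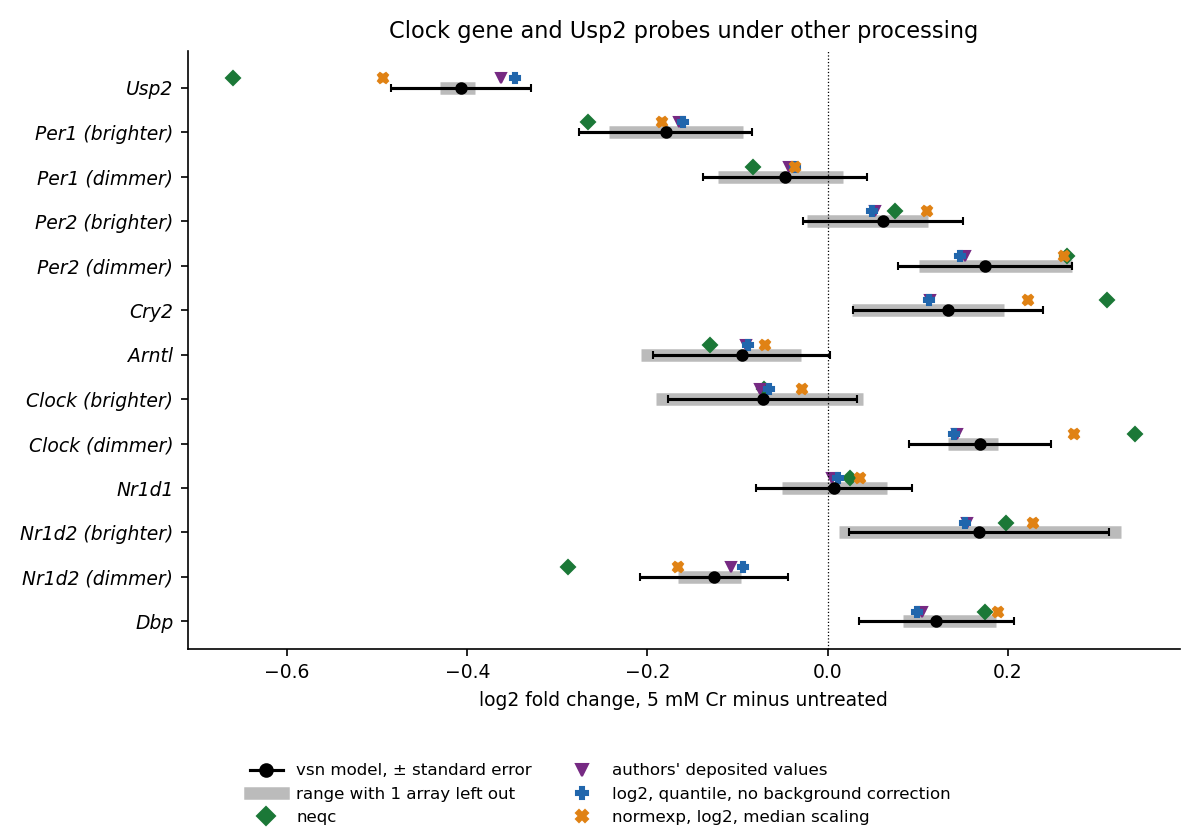
The horizontal axis gives the log2 fold change (5 mM Cr minus untreated) of each of the 13 probes (vertical axis). Black points are the vsn model with its standard error, grey bars the range with 1 array left out, and coloured symbols other normalizations. Usp2 stays between -0.66 and -0.35 in all of them, whereas Per1 (dimmer), Per2 (brighter), Clock (brighter) and Nr1d1 cross 0 when an array is left out.

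Where a gene had a pair of probes, the pair did not give the same value. The differences on the brighter and dimmer probe were -0.18 and -0.05 for Per1, 0.06 and 0.17 for Per2, -0.07 and 0.17 for Clock, and 0.17 and -0.13 for Nr1d2. The sign was shared by the probes of Per1 and of Per2 and was opposite for Clock and Nr1d2. Standard errors of the 13 probes lay between 0.078 (Usp2) and 0.144 (Nr1d2), with a median of 0.088 over all tested probes. Apart from Usp2 and the dimmer Clock probe, each difference was smaller than 2 of its standard errors.

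Other clock and linked genes, taken from 6 lists chosen by what their products do, gave 42 measured genes of 61, of which 0 passed limma's adjusted threshold when the brightest probe of each gene was fitted. In that fit 8 of 10585 genes (0.0756%) passed, 1 higher and 7 lower, and the median log2 fold change of all genes was 0.003. Of the 42, 6 (14.3%) had an unadjusted p at or below 0.05, beside 587 of all genes (5.55%). The lists, too, were drawn up with earlier results of these data known, so nothing is read from their counts here or below. The other clock transcription factors held 3 measured genes of 12, with 0 that rose and 0 that fell and a median of -0.07. Bhlhe40 (DEC1), a repressor that competes for E-boxes, had -0.23 (standard error 0.093), from 10.56, 10.35 and 10.63 untreated to 10.39, 10.21 and 10.26 with Cr. Cr replicate 1 lay above untreated replicate 2, so the groups of Bhlhe40 overlapped. Ciart, a repressor of CLOCK and BMAL1, had -0.07, with 0.17 and -0.13 on its other probes, and Tef, a PAR factor related to Dbp, had 0.10.

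Of 14 clock kinases and ubiquitin ligases, 10 were measured, 0 rose and 0 fell, and their median was 0.01. Prkaa1, a catalytic subunit of the energy sensor AMPK, which phosphorylates CRY1, had 0.10 (standard error 0.104). Csnk1d and Csnk1e, the casein kinases that phosphorylate PER proteins, had -0.07 and 0.03 (-0.05 on the other Csnk1e probe), and Gsk3b, a kinase that acts on several clock proteins, had 0.05. Other probes of Csnk1d gave -0.19, -0.11, -0.05 and -0.04, and the groups did not overlap on the probe at -0.19. Of 11 clock cofactors, 9 were measured, 0 rose and 0 fell, with a median of -0.01. Crebbp, an acetyltransferase that works with CLOCK and BMAL1, had -0.25 with a large standard error (0.183). With 1 array left out it ranged from -0.44 (Cr replicate 1) to -0.02 (Cr replicate 3), and its other probes gave -0.07 and 0.04. Timeless, Sfpq and Sin3a had 0.13, 0.11 and 0.11.

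Of 7 clock output genes 6 were measured, 0 rose and 0 fell, with a median of -0.08, and 3 of them had groups that did not overlap, as had 1208 (11.4%) of all genes on their brightest probe. Tsc22d3, which encodes the glucocorticoid-induced protein GILZ, read 10.40, 10.14 and 10.09 untreated and 10.57, 10.54 and 10.61 with Cr, a log2 fold change of 0.36 (standard error 0.092). Its dimmer probes gave 0.12 and -0.03, with groups that overlapped. Cdkn1a, the cell cycle inhibitor p21, read 7.87, 8.03 and 8.03 untreated and 7.74, 7.77 and 7.55 with Cr, or -0.29 (standard error 0.089), and its other probe gave -0.26. Noct, which encodes the rhythmic protein nocturnin and also responds to serum, read 11.61, 11.50 and 11.36 untreated and 11.25, 11.17 and 11.36 with Cr, or -0.23 (standard error 0.090). The separation on this probe is narrow, since untreated replicate 3 and Cr replicate 3 had nearly the same value. The other Noct probe gave -0.28, with groups that overlapped. Tspan4 had -0.11.

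A list of 12 genes held members of the CREB pathway, which carries cAMP and serum signals to the Per genes, and immediate early genes such as Fos. Of these 12 genes, 9 were measured, 0 rose and 0 fell. The median was -0.07 and 8 of 9 were below 0, beside 48.7% of all genes. Over all 14 probes of these genes 9 were below 0 and 5 above, with a median of -0.04. On 3 of the 14 probes, of Crtc3 (0.19), Crem (0.17) and Creb1 (0.15), all Cr arrays lay above all untreated arrays. On 1, of Fos, all Cr arrays lay below all untreated arrays. Over all tested probes the groups did not overlap for 10.7%. This Creb1 probe was detected on 0 untreated and 2 Cr arrays, so it passed the detection filter only through the Cr group. The brightest probes of Crtc3 and Creb1 had -0.04 and -0.05. Fos, an immediate early gene and a CREB and SRF target, read 8.89, 8.59 and 8.70 untreated and 8.34, 8.08 and 8.34 with Cr. Every Cr array lay below every untreated array, and the log2 fold change of -0.47 (standard error 0.100) was the largest in size among the 42 listed genes. The CREB coactivator gene Crtc2 had -0.20 (standard error 0.090), the immediate early gene Egr1 -0.12 and the cAMP-responsive modulator gene Crem -0.12 on its brightest probe, with 0.17, 0.07 and -0.03 on the others. Genes for other proteins that USP2 deubiquitinates, or that it has been linked to, were all measured (5 of 5), with 0 that rose, 0 that fell and a median of -0.03. Ccnd1, cyclin D1, had 0.15 (standard error 0.101), with 0.18 and 0.21 on its other probes. The groups overlapped on the probes at 0.15 and 0.21 and did not overlap on the probe at 0.18. Mdm2, the p53 ubiquitin ligase, had -0.10 (-0.22 on its other probe), its relative Mdm4 -0.04 (-0.12 on its other probe) and the mitotic kinase gene Aurka -0.03.

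**Figure D3:**
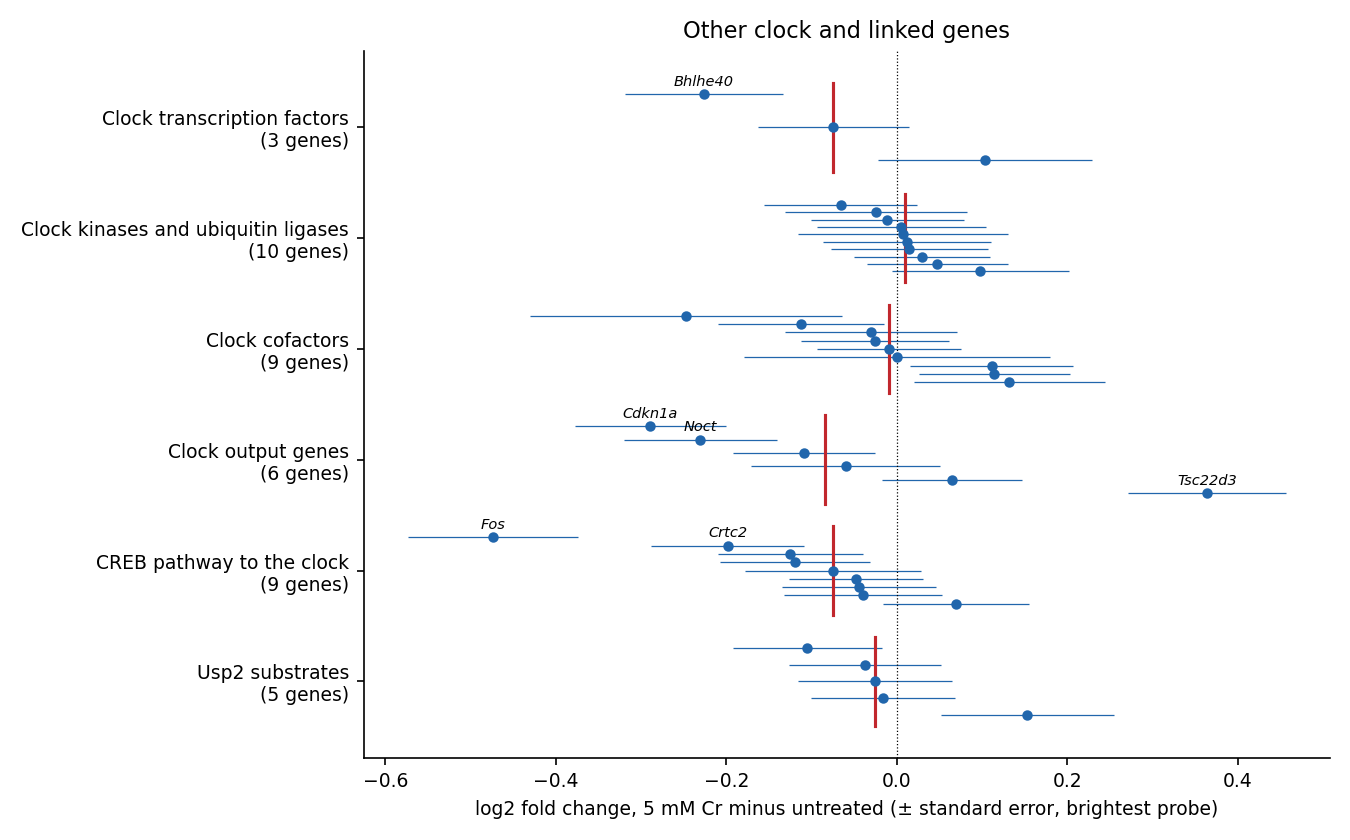
Each point is the log2 fold change (5 mM Cr minus untreated, horizontal axis) of the brightest probe of a gene with its standard error, in 6 lists of genes linked to the clock or to USP2 (vertical axis, with the number measured), and the red line is the median of the list. The 6 named genes had an unadjusted limma p at or below 0.05, and the medians lie between -0.08 and 0.01.

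The likeness of other genes to Usp2 across the 6 arrays was measured as Pearson's r on normalized log2 values over 3264 genes whose brightest probe was detected on all arrays and varied at least 0.5 times as much as Usp2. These values rest on 6 arrays in 2 groups and mostly restate the difference between the groups. The 5 genes most like Usp2 were Gfod1 (r = 0.985), the gap junction gene Gjb2 (0.981), the Krüppel-like factor gene Klf16 (0.979), the growth factor gene Fgf7 (0.978) and the hyaluronan synthase gene Has2 (0.973). Their log2 fold changes were -0.45, -0.61, -0.23, -0.32 and -0.32 in that order, each with groups that did not overlap. Since they were picked by their r with Usp2, whose groups do not overlap, nothing is read from this separation. The 5 most opposed were Rhobtb1 (-0.991), the autophagy gene Atg5 (-0.989), the α-arrestin gene Txnip (-0.985), Akap17b (-0.983) and Stimate (-0.982), with log2 fold changes of 0.33, 0.29, 0.58, 0.33 and 0.20. The clock gene probes were neither picked by r nor held to these limits of detection and spread, so their r cannot be ranked against those above. Their r ran from -0.91 for the dimmer Clock probe to 0.69 for the dimmer Nr1d2 probe. The brighter Per1 probe had 0.68, the dimmer Per2 probe -0.71 and Dbp -0.66, and the other 7 probes lay between -0.32 and 0.41.

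**Figure D4:**
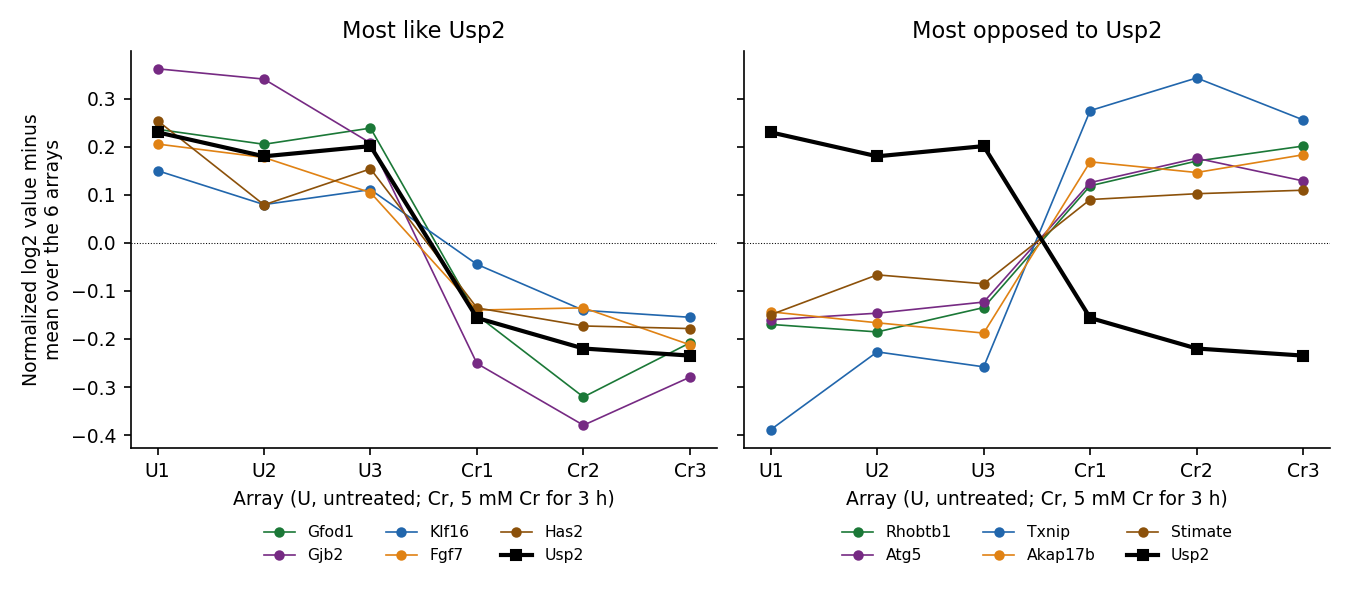
The vertical axis gives normalized log2 values minus each gene's mean over the 6 arrays, and the horizontal axis the 3 untreated (U) and 3 Cr arrays. Lines join the arrays of a gene only to guide the eye. Genes most like Usp2 (black) are on the left, and genes most opposed on the right. All have groups that do not overlap, which follows largely from their choice by r with Usp2.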

How the data were processed

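The data were signals from 6 Illumina Mouse WG-6 v2 BeadChip arrays (3 untreated wells, 3 Cr wells), with groups and replicate numbers taken from the sample labels. For 45281 probes, the authors deposited a signal intensity that still includes background. They also deposited a detection p-value that ranks the probe against negative controls. The deposited processed values, on a generalized log2 scale, were made by the authors with background correction, vsn and removal of undetected probes, and were used as an alternative.

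The vsn model (per array, an asinh with its own offset and scale; trimmed fit, quantile 0.9, 7 rounds) was written in R 4.3.3 and fitted to all probes. Any probe detected (p at or below 0.05) on 1 or more arrays entered limma 3.58.1, two-sided, with no covariate and with p adjusted over the 20308 probes (Benjamini-Hochberg). Gene lists were read on the brightest probe of each gene, with adjustment over 10585 genes. Symbols came from the platform annotation, in which 16925 of the tested probes carry 1 symbol and 3383 none or several. Array signals have no read depth, and 3 arrays per group limit the precision. The genes and lists were chosen with earlier results of these data known. The text covers every tested probe of the chosen genes, up to 4 genes of lowest p in each list, and the 5 genes most like and most opposed to Usp2. Other probes of listed genes, and the brightest probes of Crtc3 and Creb1, were named after their values were seen. The fits were run on simulated arrays in which every change made was larger in size than that of Usp2. They therefore do not show whether changes as small as that of Usp2, or smaller, could be found. Alternatives were neqc (offset 16), normexp (offset 50) with median scaling, log2 with quantile normalization, the deposited values, other detection filters, a trended robust variance model, the replicate number as a block, and each array left out of the test. Plots were made in Python 3.11.15 (matplotlib 3.10.9).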

Additional observations from a re-analysis of the deposited data

How the results depend on the processing

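Over all tested probes 6 passed limma's adjusted p threshold of 0.05. The number was 0 with neqc (1145 had an unadjusted p at or below 0.05), 2 with normexp and median scaling, 12 with the authors' deposited values, 12 with log2 and quantile normalization, 10 with no detection filter, 13 with a trended robust variance model and 14 with the replicate block. With an array left out it ranged from 0 to 9. It was 9 when untreated replicate 1 was left out, 1 when Cr replicate 2 was, and 0 for the other 4 arrays (775 to 1493 unadjusted at that level). Of the 13 probes of Usp2 and the clock genes 0 passed under any setting run (1 to 3 did unadjusted), and their non-overlapping probes numbered 5 without untreated replicate 2 (38.5%, beside 23.2% of all probes), 4 without Cr replicate 2 (30.8%, beside 18.6%) and 2 or 3 otherwise, where any left-out array raises the share of all probes to between 18.3% and 23.2%. Of the 42 listed genes 0 passed, except with the replicate block, where 1 did (Fos, adjusted p = 0.0477). Samples that share a number deviated from their group means with correlations of 0.24, 0.31 and -0.03, so the numbers were not taken to pair the samples. With neqc the log2 fold change of Usp2 moved to -0.66, of Cry2 to 0.31, of the dimmer Clock probe to 0.34 and of the dimmer Nr1d2 probe to -0.29. With normexp Usp2 stood at -0.49 and the dimmer Clock probe at 0.27, and Usp2 was at -0.36 on the deposited values and -0.35 with quantile normalization. Among listed genes, Aurka turned to 0.021 with normexp, and with 1 array left out signs turned for Aurka (-0.113 to 0.0381), Tef (-0.00048 to 0.287), Mdm4 (-0.109 to 0.0343), Csnk1e (-0.0065 to 0.0624) and Prkaa1 (-0.0048 to 0.205). The cause of these shifts was not tested. Signals of Cry2, Nr1d1 and the dimmer Per1, Clock and Nr1d2 probes lie near the detection limit, which limits how well their differences are measured.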
